A study of Mus musculus with 12 samples.

Results

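Glycolysis breaks glucose down to pyruvate and, where pyruvate is reduced further, to lactate. Slc2a1 encodes GLUT1, the transporter through which most embryonic cells take up glucose, and the 9 enzymes measured here catalyse most of the steps from its phosphorylation to lactate. The set therefore comprised 10 genes, chosen by symbol: Slc2a1, Hk2, Gpi1, Pfkl, Aldoa, Tpi1, Gapdh, Pgk1, Eno1 and Ldha. All 10 were found among the 31078 genes of the count table, and all 10 had enough counts to be tested with 9519 genes in total. Aldoa was the exception to a simple match, because 11 rows carried these symbols. Its additional row, an upstream gene model of the same name, held 0.872% of the counts of both Aldoa rows and is given separately.

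Lungs were taken at embryonic day 12.5 from C57BL/6 mice, and left and right lungs were sequenced apart. Matings between carriers of an Intu knockout allele gave the embryos, and INTU belongs to the CPLANE proteins needed to build primary cilia. Wild-type and Intu knockout lungs of each side made 4 groups of 3 numbered libraries, without treatment. No transgene or Cre driver is named in the labels, which also do not say which part of Intu the allele removes. Whether libraries of 1 group stem from different embryos is not stated, so the p-values reflect the spread between libraries, of which a part may be technical. The numbered knockout libraries differed in Xist, a gene of the inactive X, at 107 and 118 CPM in number 1 and 912 and 985 CPM in number 2.

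Each library held 10290103 to 10753386 counts over chromosomes 1 to 7, 10, X and part of 8, and genes elsewhere were not analysed here. Levels are in CPM, counts scaled to a common library size, here relative to this part of a library. Intu itself had a log2 difference of -0.16 (SE 0.06, adjusted p = 0.162 in edgeR's quasi-likelihood test), so its summed count did not separate the genotypes, which are given as labelled. Gli1, a direct Hedgehog target, did separate them, at 345 to 394 CPM in wild-type and 151 to 185 CPM in knockout libraries. Lung markers in the table were present: the summed level of 4 mesenchymal genes (Tbx5, Col1a2, Pdgfra and Tcf21) was 3325 to 4442 CPM, and that of 2 epithelial genes (Sox2 and Foxp2) 299 to 357 CPM. The same-numbered left and right libraries of a genotype deviated together over all genes, and are called a pair below. Knockout pair number 2 stood apart in the genes described here, so results are given with and without it.

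In cells, GLUT1 brings glucose in, hexokinase traps it by phosphorylation and phosphofructokinase commits it to breakdown. Aldolase and triose phosphate isomerase then yield the 3-carbon sugar that GAPDH oxidises, PGK1 and pyruvate kinase make ATP, and enolase forms the substrate of pyruvate kinase. Lactate dehydrogenase A turns pyruvate to lactate and regenerates the NAD+ that GAPDH uses. Many of these genes are textbook targets of the hypoxia-inducible factors, and lactate production from glucose is a known feature of growing embryonic tissue.

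Per kilobase of exon, Ldha, Aldoa, Eno1 and Tpi1 had the highest values. The divisor is the deposited gene length, not that of single transcripts, and the counts of Pgk1, Gapdh and Eno1 are uncertain as described below. The order between genes is therefore approximate. Over the 6 wild-type libraries, Ldha stood at 338 ± 33.9 CPM per kilobase, Aldoa at 245 ± 20.4, Eno1 at 243 ± 26.3 and Tpi1 at 228 ± 16.6 (SD, n = 6). Pgk1 followed at 173 ± 13.1, Gapdh at 120 ± 16.2 and Gpi1 at 99.9 ± 3.52. Pfkl, at 55.7 ± 3.84, and the transporter Slc2a1, at 50.2 ± 1.72, were lower, and Hk2 was the lowest at 23.4 ± 1.22. In this order the neighbours Aldoa, Eno1 and Tpi1 overlapped across libraries, as did Gapdh and Gpi1, and Pfkl and Slc2a1, whereas Ldha, Pgk1 and Hk2 lay apart from their neighbours. Together the 10 genes took 0.532% to 0.634% of the counts in wild-type libraries and 0.647% to 1.04% in knockout libraries.

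Over both sides, 6 of the 10 genes were higher in knockout lungs in edgeR's quasi-likelihood test at an adjusted p under 0.05, against 2.08% of all tested genes called higher and 5.7% called in either direction. The 6 were Pfkl, Aldoa, Tpi1, Pgk1, Eno1 and Ldha, which were higher by 1.29-fold to 1.45-fold. Slc2a1, Hk2, Gpi1 and Gapdh were not called. At an unadjusted p under 0.05 there were 8 of the 10, beside 19.7% of all genes. All 10 differences were positive, as were 51.3% of those of all genes, and the median was 0.41 on the log2 scale against 0.00 for all tested genes. In bulk RNA, more cells of a type and more RNA per cell cannot be told apart.

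At the uptake and priming steps, no gene was called. Slc2a1 (chromosome 4, 119108711 to 119137983, GRCm38) was measured at 179, 177 and 165 CPM in libraries 1 to 3 of wild-type left lungs and at 180, 174 and 182 of right ones. Its knockout values were 200, 355 and 183 on the left and 217, 288 and 177 on the right. Pair 2 was far above all other libraries, pair 1 was above every wild-type library, and pair 3 straddled the upper end of the wild-type range. The log2 difference was 0.43 (SE 0.15, adjusted p = 0.111), and 0.14 (SE 0.06, adjusted p = 0.193) without knockout pair 2.

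Hk2, which encodes the inducible hexokinase that phosphorylates glucose on entry, also stood out in knockout pair 2 alone. It was at 129 to 149 CPM in wild-type libraries, at 186 and 193 in knockout pair 2, and at 137 to 144 in the other 4 knockout libraries. The groups overlapped except for pair 2. Its difference of 0.17 (SE 0.09, adjusted p = 0.31) became 0.01 (SE 0.04, 95% interval -0.08 to 0.10) when that pair was left out. Gpi1, the isomerase that turns glucose 6-phosphate into fructose 6-phosphate, had 615 to 667 CPM in wild-type and 649 to 946 in knockout libraries. Its difference was 0.23 (SE 0.08, adjusted p = 0.101), and 0.11 (SE 0.04, adjusted p = 0.23) without knockout pair 2.

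Pfkl, the liver-type subunit of phosphofructokinase, gave the clearest separation of the genotypes. On chromosome 10 (77986947 to 78010083), its wild-type libraries held 373, 349 and 342 CPM on the left and 407, 366 and 396 on the right. The knockout libraries held 495, 710 and 441 CPM on the left and 482, 647 and 434 on the right. Every knockout library was above every wild-type library, which was true of no other gene of the set and of 1.38% of all tested genes. The difference was 0.52 (SE 0.11, 95% interval 0.29 to 0.76, adjusted p = 0.0128). Without knockout pair 2 it was 0.32 (SE 0.05, adjusted p = 0.00238). That its 4 remaining knockout libraries lay above the wild-type ones follows from the separation of all libraries and is no further check. No other gene of the set had these 4 above the wild-type ones, and 2.61% of all genes did.

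Aldoa, the aldolase that splits fructose 1,6-bisphosphate, lies on chromosome 7 (126795234 to 126800751). Wild-type lungs held 667, 759 and 613 CPM on the left and 756, 724 and 752 on the right, and knockout lungs 945, 1434 and 795 on the left and 943, 1155 and 756 on the right. Knockout right number 3 lay just under the highest wild-type library, and the other 5 were above it. Aldoa differed by 0.50 (SE 0.13, adjusted p = 0.0353), or 0.27 (SE 0.07, adjusted p = 0.0483) without knockout pair 2. The upstream row named Aldoa was at 5.66 to 10.4 CPM in all libraries and was not called (0.19, SE 0.13, adjusted p = 0.441). Tpi1, which interconverts the products of aldolase, was at 571 to 699 CPM in wild-type and 678 to 1171 in knockout libraries. It was higher by 0.48 (SE 0.11, adjusted p = 0.0224) and by 0.28 (SE 0.07, adjusted p = 0.024) without pair 2.

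Gapdh, the dehydrogenase that is often used as a reference gene, departed from this pattern. Wild-type left libraries held 434, 567 and 520 CPM and wild-type right libraries 398, 505 and 553. Knockout left libraries held 554, 660 and 567 CPM and knockout right libraries 511, 466 and 516. Right knockout library 2 was the lowest of the 6 knockout libraries, whereas its left counterpart was the highest, and the groups overlapped. The difference was 0.13 (SE 0.08, 95% interval -0.04 to 0.31, adjusted p = 0.405). Over the 12 libraries, the log2 level of Gapdh had a Pearson r of 0.35 with the mean profile of the other 9 genes, against 0.85 to 0.99 for each of the others. These points share pairs and are given as a description.

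The last steps of the set were higher in knockout lungs. Pgk1, on the X chromosome (106187100 to 106203699), makes the first ATP of the payoff phase and rose by 0.39 (SE 0.10, adjusted p = 0.0291), from 346 to 436 CPM in wild-type to 410 to 655 CPM in knockout libraries. Eno1, the enolase, rose by 0.37 (SE 0.09, adjusted p = 0.0318), from 1101 to 1492 CPM in wild-type to 1461 to 2091 CPM in knockout libraries. Ldha, which makes lactate, showed the largest difference of the 10 genes, at 0.54 (SE 0.12, 95% interval 0.27 to 0.81, adjusted p = 0.0201). Wild-type libraries held 1101, 1148 and 952 CPM on the left and 1277, 1051 and 1182 on the right, against 1509, 2191 and 1330 and then 1503, 1972 and 1243 in knockout libraries. All but knockout right number 3 exceeded the highest wild-type library. Without knockout pair 2, Pgk1 stood at 0.23 (SE 0.06, adjusted p = 0.041), Ldha at 0.32 (SE 0.07, adjusted p = 0.0239) and Eno1 at 0.24 (SE 0.08), which was not called (adjusted p = 0.0992).

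Copies of these genes limit the counts of 3 of them. Of the 100-base stretches in annotated Pgk1 transcripts, 51.7% also occur unchanged in another annotated gene, and for Gapdh and Eno1 the shares are 20.9% and 20.4%, with 84 and 4 other genes involved. For the other 7 genes the share was at most 2.02%. How reads that match several places were counted is not given in the sources used here, so the Pgk1, Gapdh and Eno1 values are uncertain to that extent.

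**Figure D1:**
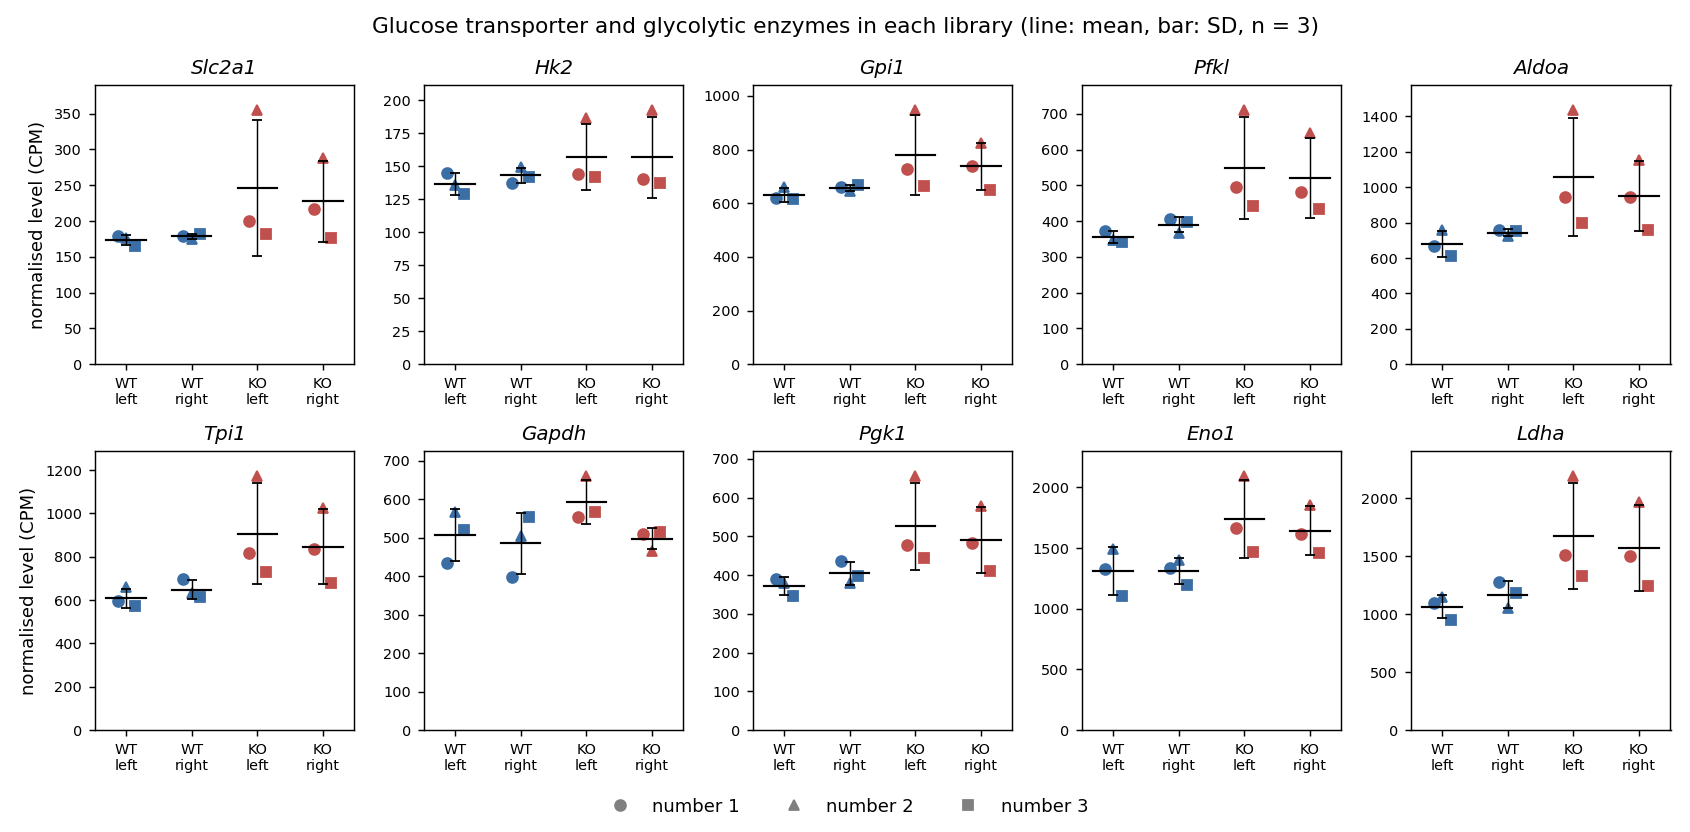
Normalised level (CPM, vertical axes from 0) of the 10 genes in each of the 12 libraries, by genotype and side. Points are libraries with a symbol for their number, lines are group means and bars are SD of 3 libraries; in knockout left lungs the triangle of number 2 is the highest point in all 10 panels.

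For most genes of this set, knockout libraries were spread more widely than wild-type ones. The SD was larger in knockout than in wild-type lungs for 9 of 10 genes on the left and for 9 of 10 on the right, Gapdh being the exception on both sides. The coefficient of variation ranged from 4.04% to 15.04% in wild-type left, 1.62% to 16.4% in wild-type right, 9.73% to 38.6% in knockout left and 5.53% to 24.8% in knockout right groups. For Slc2a1 the knockout left value was 246 ± 94.7 CPM, beside 174 ± 7.58 CPM in wild-type left lungs (SD, n = 3 each). Over all tested genes, knockout numbers 1 and 2 differed by 14.1 chi-square units per degree of freedom on the left and 12.5 on the right. Numbers 2 and 3 differed by 9.3 and 8.74, and numbers 1 and 3 by 5.11 and 5.25. Wild-type replicates differed by 4.72 to 9.21.

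The spread followed the numbers in an orderly way. Number 2 was the highest knockout library for 10 of 10 genes on the left and 9 of 10 on the right, and number 3 was the lowest for 9 of 10 on each side. With sides averaged, 9 of 10 genes had the order number 2, number 1, number 3. The genes moved together (median Pearson r 0.93 between any 2 of them), so such counts are not separate results. No share over all genes is given for these counts or for those of the SD. Relative to the wild-type mean of the same side, the median gene stood at 0.74 in knockout pair 2, 0.32 in pair 1 and 0.14 in pair 3 on the log2 scale, and at -0.05 to 0.03 in the 3 wild-type pairs. All 10 genes were above the wild-type mean in pair 1 and 9 of 10 in pair 3, Hk2 being just below it. Ldha, for example, was above that mean by 0.90 in pair 2, 0.43 in pair 1 and 0.21 in pair 3.

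**Figure D2:**
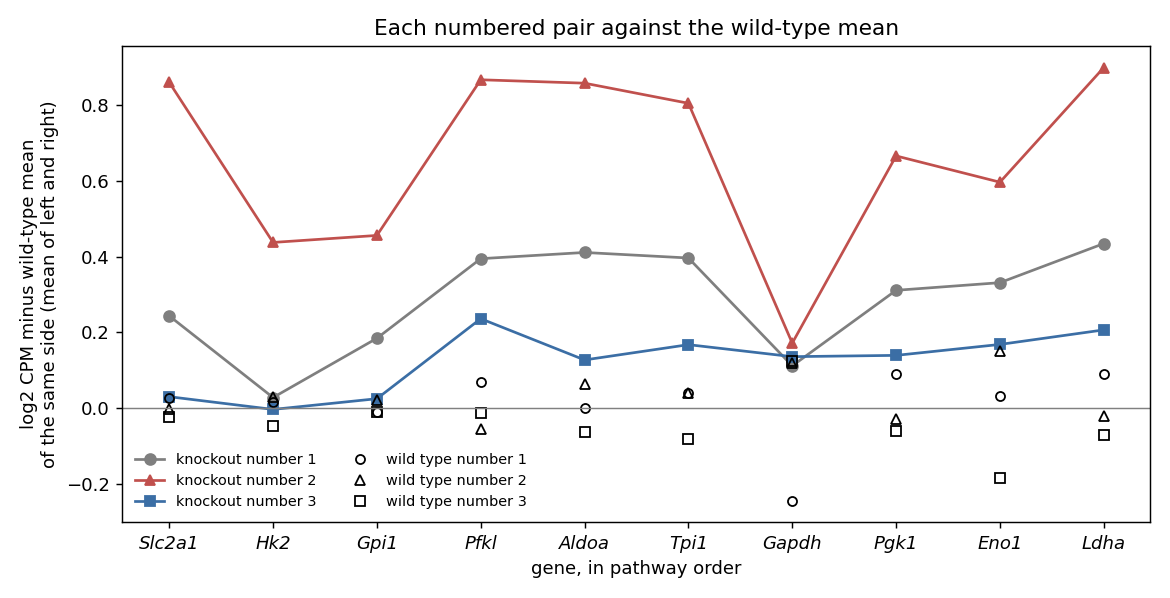
Log2 CPM of each gene minus the wild-type mean of the same side, averaged over left and right (vertical axis), for the genes in pathway order. Filled symbols joined by lines are the 3 knockout pairs and open symbols the 3 wild-type pairs; the line of knockout pair 2 is the highest throughout, at 0.17 for Gapdh and 0.44 to 0.90 for the other genes.

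Leaving out knockout pair 2 lowered the median difference of the 10 genes from 0.41 to 0.24 and left 5 called, Pfkl, Aldoa, Tpi1, Pgk1 and Ldha, where 1.82% of all genes were called higher. The number called also changed when wild-type libraries were left out. Without wild-type pair 1 only Pfkl was called, without wild-type pair 2 only Eno1, and without wild-type pair 3 none (smallest adjusted p = 0.0519), with medians between 0.39 and 0.44. In those 3 fits, 3.99%, 2.73% and 4.65% of all genes were called in either direction, and 1.67%, 0.83% and 1.88% called higher. Among single libraries, 2 genes were called without wild-type left 1, wild-type right 3 or knockout right 2, and 1 gene without wild-type left 3 or wild-type right 2. Over all genes, 3.65% to 4.7% were called in these 5 fits, and 1.12% to 1.7% called higher. Wild-type left 3 was the lowest of all 12 libraries for 9 of the 10 genes.

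A fit of all 12 libraries counts the members of a pair as independent, and fits that treat the pairs otherwise differed in the number called. With left and right counts of a pair summed, which leaves 3 against 3, none of the 10 genes was called in edgeR (1.38% of all genes were), with adjusted p-values from 0.135 for Pfkl to 0.582 for Gapdh. In that fit the median was 0.41, and 8 of 10 genes had an unadjusted p under 0.05 beside 13.2% of all genes. The SE was larger with pairs summed for each of the 10 genes, as was the p-value before adjustment. Pfkl went from 0.52 (SE 0.11) to 0.52 (SE 0.14) and Ldha from 0.54 (SE 0.12) to 0.54 (SE 0.15). Summing also leaves fewer libraries and changes the genes tested (10203), and what each change adds to the lost calls was not tested. Limma-voom with the pair as a random effect called 5 of the 10, the same 6 without Aldoa, beside 3.61% of all genes (1.13% higher). That fit applied 1 correlation within pairs, 0.341, to all genes. Genes whose pairs agree more closely are corrected too little by it, and the correlation of the 10 genes was not estimated apart. DESeq2, which ignores the pairs, called 7, adding Gpi1, beside 6.99% of all genes (2.91% higher).

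**Figure D3:**
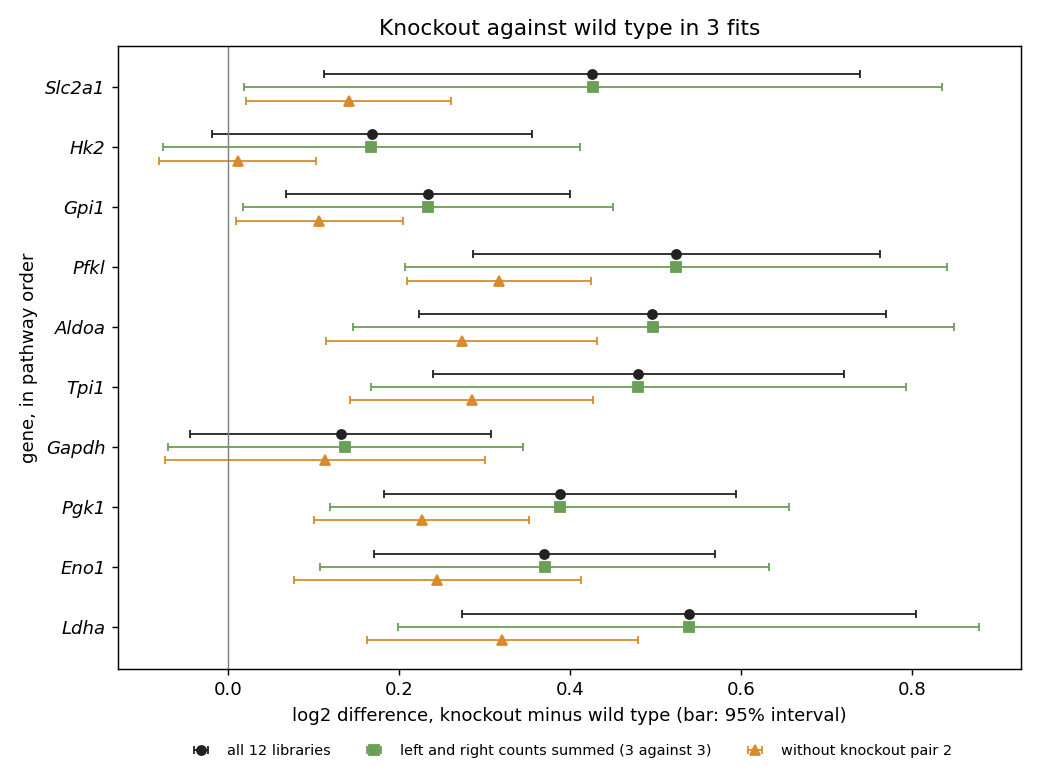
Log2 difference between knockout and wild-type lungs over both sides, with 95% intervals, for the 10 genes in pathway order. Circles are the fit of 12 libraries, squares the fit of summed pairs and triangles the fit without knockout pair 2; without that pair the values lie between 0.01 for Hk2 and 0.32 for Ldha and Pfkl.

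On each side alone, no gene of the set passed the adjusted threshold in edgeR or DESeq2. In left lungs, where edgeR called 1.18% of all genes (0.305% higher), all 10 differences were positive beside 51.1% of all genes, the median difference was 0.50 and the smallest adjusted p was 0.077 for Pfkl (0.63, SE 0.16). There 8 of 10 genes had an unadjusted p under 0.05, as did 10.9% of all genes, and 7 of 10 had knockout libraries wholly above wild-type ones, as did 7.02% of all genes. In right lungs, where 1.51% of all genes were called (0.336% higher), again all 10 were positive beside 51% of all genes, the median was 0.34 and the smallest adjusted p 0.253, again for Pfkl (0.42, SE 0.16). On that side 4 of 10 had an unadjusted p under 0.05 beside 13.5% of all genes, and 3 of 10, Pfkl, Aldoa and Eno1, did not overlap beside 8.47% of all genes. For Aldoa that rested on a near tie, since the nearest wild-type and knockout libraries were both at 756 CPM. When limma-voom took the pair as random, Pfkl was called on the left (adjusted p = 0.0353; 1.44% of all genes called) and none on the right (1.82%).

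The genotype difference was larger on the left for all 10 genes (50.8% of all genes), but no interaction passed the adjusted threshold. Without knockout left 2 alone, which keeps its high right counterpart, 2 of 10 interactions were positive, with a median of -0.02. With both libraries of knockout pair 2 left out, 9 of 10 were positive, with a median of 0.11. The interaction gave no call in edgeR without pairs (0% of all genes called, 0 of the 10 at an unadjusted p under 0.05 and 1.3% of all genes), and none in DESeq2. With pairs as blocks, 0.021% of all genes were called and none of the set, while 5 of 10 had an unadjusted p under 0.05 beside 4.28% of all genes. The largest paired value was that of Aldoa, at 0.27 (SE 0.09, 95% interval 0.09 to 0.45, adjusted p = 0.998). Pfkl stood at 0.20 (SE 0.07) and Eno1 at 0.08 (SE 0.07).

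Left and right lungs of one genotype differed little. In wild-type lungs 8 of 10 genes had a lower mean on the left, Eno1 was equal on both sides and Gapdh was higher on the left (50% of all genes were), with a median of -0.08. In knockout lungs all 10 were higher on the left, beside 50.6% of all genes, with a median of 0.10. Without knockout left 2 alone only 1 of those 10 was higher on the left, with a median of -0.13. Without knockout right 3 alone there were 3, with a median of -0.03. Such removals keep the other library of the pair. With both libraries of knockout pair 1, 2 or 3 left out, 9 of 10 were higher on the left, with medians of 0.15, 0.03 and 0.10. EdgeR without pairs called none in either genotype (0.0105% and 0% of all genes called, with 0 and 1 of the 10 at an unadjusted p under 0.05 beside 2.62% and 3.76%), and DESeq2 also called none. With pairs as blocks, 0.662% of all genes were called in wild-type and 0.452% in knockout lungs, and none of the set. In that fit 4 and 2 of the 10 had an unadjusted p under 0.05, beside 6.63% and 9.61% of all genes. Gapdh in knockout lungs came nearest, with a left-minus-right difference of 0.25 (SE 0.06, adjusted p = 0.106).

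The region before each start was examined because most of the set moved together across libraries. The hypoxia-inducible factors are known to bind DNA at a short core, searched here as ACGTG or GCGTG on both strands. Windows were the 250 bases before each RefSeq start (GRCm38.p6). Of 15 windows for the 10 genes, 12 held at least 1 match, covering 8 genes, and 7 held 2 or more. Among 32851 windows of all RefSeq genes, 38.6% held a match and 16.7% held 2 or more; base composition was not matched, and some windows of one gene overlap. Gpi1 and Tpi1 had no match. Ldha had windows before 2 starts. The one at chr7:46845554-46845803 held 5 matches. In it CACGTG, which contains ACGTG on each strand and is met in 6.02% of all windows, occurred 2 times. The other, at chr7:46846832-46847081, held 1 match and no CACGTG. Shown here 5′ to 3′ with the matches in capitals are the transporter and hexokinase, the called enzymes Pfkl, Tpi1, Pgk1 and Ldha, and Gapdh, whose difference over all 12 libraries was the smallest. A match is a run of letters and was not tested for binding.
Slc2a1, chr4:119108495-119108744, plus strand: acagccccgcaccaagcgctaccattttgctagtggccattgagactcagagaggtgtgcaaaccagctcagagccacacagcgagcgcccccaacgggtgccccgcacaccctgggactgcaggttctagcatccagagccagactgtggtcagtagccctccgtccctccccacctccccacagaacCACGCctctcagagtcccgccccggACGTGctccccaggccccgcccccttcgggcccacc
Hk2, chr6:82774455-82774704, minus strand: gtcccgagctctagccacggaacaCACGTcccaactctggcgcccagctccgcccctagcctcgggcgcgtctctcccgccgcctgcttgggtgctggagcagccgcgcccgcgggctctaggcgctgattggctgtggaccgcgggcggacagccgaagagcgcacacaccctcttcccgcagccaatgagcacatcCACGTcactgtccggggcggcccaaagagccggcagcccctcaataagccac
Pfkl, chr10:78009808-78010057, minus strand: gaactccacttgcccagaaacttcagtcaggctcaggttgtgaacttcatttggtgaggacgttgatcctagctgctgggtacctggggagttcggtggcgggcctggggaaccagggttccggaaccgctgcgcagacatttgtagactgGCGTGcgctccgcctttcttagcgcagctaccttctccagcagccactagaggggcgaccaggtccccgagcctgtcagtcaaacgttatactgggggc
Tpi1, chr6:124814159-124814408, minus strand: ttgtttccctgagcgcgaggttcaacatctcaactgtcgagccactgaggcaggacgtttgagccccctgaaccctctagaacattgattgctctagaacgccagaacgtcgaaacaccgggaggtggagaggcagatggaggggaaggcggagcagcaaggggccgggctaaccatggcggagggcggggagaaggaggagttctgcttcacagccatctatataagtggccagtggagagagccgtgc
Gapdh, chr6:125165774-125166023, minus strand: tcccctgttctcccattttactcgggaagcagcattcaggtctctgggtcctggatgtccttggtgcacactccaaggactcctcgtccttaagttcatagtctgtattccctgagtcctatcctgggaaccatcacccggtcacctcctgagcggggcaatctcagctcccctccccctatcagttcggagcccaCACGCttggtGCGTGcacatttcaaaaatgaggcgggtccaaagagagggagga
Pgk1, chrX:106186850-106187099, plus strand: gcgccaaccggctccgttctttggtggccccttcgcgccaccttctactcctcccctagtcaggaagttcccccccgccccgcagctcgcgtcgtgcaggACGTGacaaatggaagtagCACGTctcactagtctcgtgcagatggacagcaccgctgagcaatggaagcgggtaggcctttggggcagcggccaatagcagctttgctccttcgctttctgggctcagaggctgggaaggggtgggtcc
Ldha, chr7:46845554-46845803, plus strand: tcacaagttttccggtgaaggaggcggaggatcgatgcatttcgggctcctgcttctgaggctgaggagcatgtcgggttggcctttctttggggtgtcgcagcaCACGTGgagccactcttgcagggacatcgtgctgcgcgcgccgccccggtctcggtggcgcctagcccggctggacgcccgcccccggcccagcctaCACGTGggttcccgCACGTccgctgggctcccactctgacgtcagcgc
Gapdh, which was not called with all 12 libraries, held 2 matches, and Tpi1, which was called there, held none. Whether matches go with differences between genotypes was not tested. Without knockout pair 2 the differences of Hk2 (0.01) and Gpi1 (0.11) were no larger than that of Gapdh (0.11).

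Other genes of the pathway were less uniform. Of 37 further genes of glucose transport, glycolysis and pyruvate use, 20 were in the table and 17 were tested. Of these, 3 were called higher and none lower, with a median of 0.06, beside 2.08% of all genes called higher and 5.7% in either direction. Slc2a3, the high-affinity neuronal-type transporter GLUT3, had wild-type levels of 44.4, 40.5 and 42.9 CPM on the left and 51.4, 47.2 and 38.1 on the right, against 61.1, 64.0 and 57.0 in knockout left and 69.9, 55.6 and 56.4 in knockout right. The genotypes did not overlap, and knockout pair 2 was not the highest on the right. Slc2a3 rose by 0.46 (SE 0.08, adjusted p = 0.00291), by 0.47 (adjusted p = 0.00559) without knockout pair 2 and by 0.46 (adjusted p = 0.0321) with pairs summed.

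Pdk1 and Pfkfb3 were the other called genes of that list. Pdk1, the kinase that blocks entry of pyruvate into mitochondria, was higher by 0.78 (SE 0.20, adjusted p = 0.0336) and by 0.38 without knockout pair 2 (adjusted p = 0.0239). Pfkfb3, which makes the activator of phosphofructokinase, rose by 0.22 (SE 0.05, adjusted p = 0.0189) and stood at 0.16 (adjusted p = 0.0457) without that pair. With pairs summed, neither Pdk1 (adjusted p = 0.205) nor Pfkfb3 (adjusted p = 0.147) was called. The hexokinase Hk1 stood at 0.07 and the lactate dehydrogenase subunit Ldhb at 0.12, and neither was called (adjusted p = 0.633 and 0.181).

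Of 29 hypoxia response genes outside glycolysis, 13 were tested and 2 were called, both higher, beside 2.08% of all genes called higher. The median was 0.34, and 12 of 13 differences were positive, beside 51.3% of all genes. The list was not uniform, since Hilpda (0.01, adjusted p = 0.966) and Car9 (0.02, adjusted p = 0.961) were close to no difference. P4ha1, a collagen prolyl hydroxylase subunit, rose by 0.68 (SE 0.18, adjusted p = 0.0369), and Ddit4, an inhibitor of mTORC1, by 0.57 (SE 0.14, adjusted p = 0.0253). Both were called without knockout pair 2, at 0.33 and 0.32, and neither with pairs summed (adjusted p = 0.218 and 0.182). Without pair 2 the median of this list fell to 0.11.

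In 3 neighbouring pathways no gene was called, beside 5.7% of all tested genes, and their difference from the set was not tested. None of 8 tested pentose phosphate genes was called (median -0.04), the smallest p-values being those of G6pdx (-0.06, adjusted p = 0.491) and Prps2 (-0.05, adjusted p = 0.578). None of 11 citric acid cycle genes was called either (median -0.04), with Mdh2 at -0.11 (adjusted p = 0.0896) and Sdhc at -0.08 (adjusted p = 0.374). Among 5 tested genes of gluconeogenesis and glycogen none was called, with Pgm1, the phosphoglucomutase that links glycogen to glycolysis, at 0.33 (adjusted p = 0.0517) and Gys1 at 0.17 (adjusted p = 0.171). In these 3 lists the number with an adjusted p under 0.05 was 0 in edgeR with pairs summed as well. Of 6 tested regulators, Txnip, which restrains glucose uptake, was called, and fell by 0.29 (SE 0.08, adjusted p = 0.0446), a call lost without knockout pair 2 (-0.22, adjusted p = 0.148) and with pairs summed (-0.28, adjusted p = 0.228).

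**Figure D4:**
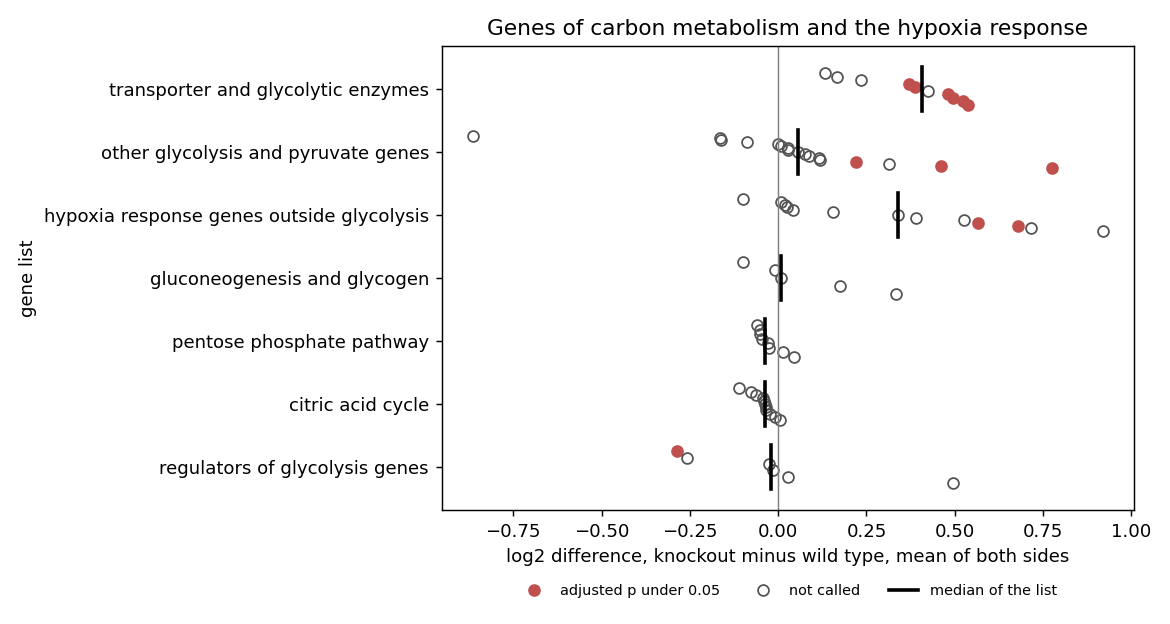
Log2 difference between knockout and wild-type lungs over both sides (horizontal axis) for each tested gene of 7 lists. Filled points passed the adjusted threshold and open points did not; black bars are list medians, 0.41 for the transporter and glycolytic enzymes, 0.34 for the hypoxia response and -0.04 for the citric acid cycle.

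The genes whose log2 level over the 12 libraries was most like the mean profile of the 10 were Grhpr (Pearson r 0.97), Bnip3 (0.97), P4ha1 (0.96), Pdk1 (0.96) and Ak4 (0.96). Grhpr, a glyoxylate and hydroxypyruvate reductase, was at 42.0 to 49.7 CPM in wild-type and 49.9 to 82.7 in knockout libraries. Bnip3, a mitochondrial protein of the hypoxia response, reached 118 and 94.6 CPM in knockout pair 2, against 26.8 to 44.8 in the other 10 libraries. Ak4, a mitochondrial adenylate kinase, reached 96.8 and 92.6 CPM in that pair, against 43.1 to 62.6 elsewhere.

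Markers of other cells were compared beside these values, where 5.7% of all tested genes were called with all 12 libraries and 1.38% with pairs summed. Of 8 tested erythroid genes none was called in edgeR with all 12 libraries or with pairs summed, and their summed level was 2224 to 3540 CPM in wild-type and 2517 to 3897 in knockout libraries, with knockout left 2 the highest. All 5 tested myeloid genes were lower, with a summed level of 137 to 161 CPM in wild-type and 90.8 to 120 in knockout libraries. All 5 neuronal genes were lower too, at 29.6 to 52.7 against 22.3 to 26.7 CPM. With pairs summed, 1 of the 5 myeloid and 3 of the 5 neuronal genes were called. The cardiac list summed to 51.0 to 81.3 against 17.0 to 35.8 CPM, with 1 of 3 genes called higher (Myl2) and 1 lower (Actc1). Most of that sum was Actc1, at 47.1 to 72.2 against 12.9 to 27.9 CPM, and Tnnt2 was not called (-0.12, adjusted p = 0.858). The skeletal muscle list summed to 91.3 to 109 against 75.1 to 99.4 CPM, with Pax7 and Ckm higher at 2.30 CPM or less and Des lower. With pairs summed, Pax7 and Actc1 were called, and Myl2, Ckm and Des were not (adjusted p = 0.124, 0.0885 and 0.137). Without knockout pair 2 the Myl2 call was also lost (adjusted p = 0.0605). None of 2 hepatic and 2 endothelial genes was called, and Alb was at 40.3 CPM in knockout left 1 and at 2.70 or less in the other 11 libraries. No defining marker in these lists was at 0 in all libraries. Xist, which marks cells with an inactive X, was at 1271 to 2269 CPM in wild-type libraries, 107 and 118 in knockout pair 1, 912 and 985 in pair 2 and 388 and 496 in pair 3. Whether these cells, or sex, had a part in the values of the 10 genes was not tested.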

How the data were processed

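Raw counts of reads per gene were deposited by the authors for 12 libraries. FastQC, HISAT2 with GRCm38 and featureCounts are named in the submitters' processing notes. No source used here gives versions, the strand setting or the treatment of multiply mapping reads. In the table, 1 incomplete row was left out. Gene symbols matched 30915 of 31078 IDs (99.5%). Gene length in bases is the deposited featureCounts value.

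Genes were filtered with filterByExpr (minimum count 10, minimum total 15) and scaled by TMM (factors 0.992 to 1.01). The 4 groups were fitted together in edgeR 4.0.16 (R 4.3.3; quasi-likelihood test, 8 residual degrees of freedom, no covariate), with p-values adjusted by Benjamini-Hochberg over 9519 genes within a comparison and a threshold of 0.05. Alternatives used DESeq2 1.42.0 and limma 3.58.1. Log2 CPM values used a prior count of 2. The procedure was tested on simulated data.

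Pairing was checked before fits were compared. Deviations from group means correlated at 0.253 to 0.486 for the left and right libraries of one number and genotype in all 6 pairs, while other numbers gave -0.393 to -0.0028. Across genotypes, libraries of one number gave -0.121 to -0.0416. The pairing within a genotype comes from these data, not from the labels. No replicates of a group looked like one library deposited again (4.72 to 14.1 chi-square units per degree of freedom).

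The 10 genes and the lists were chosen with earlier results of these data known. All 10 are named, then up to 4 called genes of each further list by smallest p (the 2 smallest where none was called), the 5 most similar genes, Intu and Gli1. Other genes (Hk1, Ldhb, Hilpda, Car9, Xist, single markers and those under the closing observations) were picked with their values known.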

Additional observations from a re-analysis of the deposited data

How the results depend on the processing

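The direction of each of the 10 genes over both sides was positive in all 32 alternatives, and the median lay between 0.24 and 0.55. The number called was not stable. Over both sides it was 0 with left and right counts summed (1.38% of all genes called). When any pair was also left out of that fit it was 1 without knockout pair 2 and otherwise 0 (0.279% to 1.61%). In limma-voom with pairs as a random effect and without knockout pair 2 it was 3 (3.56%). Both these last kinds of fit were chosen after seeing the data. Leaving out single libraries or pairs gave 0 to 8 (2.73% to 6.58% of all genes called), the 8 without knockout pair 3 (3.43%). No filter on low counts gave 9 (5.77%). On the left, where none was called, the number was 9 without a filter on low counts (2.72% of all genes called). It was 6 with the replicate number as a replicate block (1.86%). Limma-voom with pairs as a random effect gave 1 (1.44%), and 1 also without knockout pair 2 (1.3%). With libraries or pairs left out the left number was 0 to 3 (0.464% to 1.41%). On the right it was 7 without the filter (3.17%) and 1 with the replicate number as a block (2.02%). With any library or pair left out the right number was 0 (0.497% to 1.8%). The cause was not tested. The numbers did not pair libraries across genotypes, so the fit with the replicate number as a replicate block is given for completeness. The interaction and both comparisons of sides gave 0 called genes of the set in all alternatives run, the paired ones included. Over all genes, edgeR called 543 over both sides, against 141 with pairs summed and 1084 without the filter. The lowest count of the set was 1377 reads, for Hk2 in 1 library.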

Other observations

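Knockout pair 2 also differed from the other libraries in genes outside the pathway. Bhlhe40, a transcriptional repressor of the hypoxia response, was at 38.5 and 31.9 CPM in that pair and at 14.2 to 16.7 in the other 10 libraries, so that its difference between genotypes went from 0.53 to 0.01 on the log2 scale without it. Hbb-bs, an adult beta globin, was at 551 and 470 CPM in the pair and at 193 to 326 elsewhere. The embryonic globin Hbb-bh1 was at 43.4 and 34.8 CPM in the pair, below the other 4 knockout libraries (50.04 to 118) and near the lower end of the wild-type range (39.4 to 79.6). None of these 3 genes was called over both sides in edgeR (adjusted p = 0.237, 0.394 and 0.405).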
